A study of Saccharomyces cerevisiae with 19 samples.

Results

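The comparison is of replicate 1 with replicate 2 in the footprints of wild-type budding yeast. It used the 6 standard ribosome profiling libraries made by 3 preparations, named Nonrandom, 4N and 4+3N for linkers or primers without or with random bases. The 3 libraries titled replicate 1 were set against the 3 titled replicate 2, each with its partner of the same preparation, and these are 6 of the 19 libraries of the series. All 6 came from *Saccharomyces cerevisiae* BY4741, a MATa laboratory strain that carries deletions in *HIS3*, *LEU2*, *MET17* and *URA3*. Cultures in YPD were taken from an OD600 of 0.02 to 0.4, held in cycloheximide for 1 min, filtered and frozen, and ribosome-protected fragments of 28 to 32 nt were sequenced. The labels give both replicates the same genotype, medium and treatment and tell them apart by number alone. A further 6 mRNA-seq libraries (3 preparations, replicates 1 and 2) and 4 libraries called low (Nonrandom low and 4+3N low, replicates 1 and 2) were set beside them.

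No label says whether a replicate number marks a culture. Libraries of 1 number may therefore be 3 preparations of a single sample, and the p-values below measure agreement between preparations of 2 samples and not the spread between cultures. The samples are bulk, so a change in the makeup of a culture and a change within each cell cannot be told apart. The library titled 4+3N replicate 2 is given replicate 1 elsewhere in its labels, and the title was followed. The table of Nonrandom replicate 1 lists each of its 5559 genes a second time, and the second list was used.

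Ribosome profiling counts the mRNA fragments that translating ribosomes shield from nuclease, so a gene's share of footprints follows both how much of its mRNA is present and how densely ribosomes load it. In yeast the genes for ribosomal proteins and for ribosome assembly are coordinated with growth rate and nutrient signals. The transcription factors Msn2 and Msn4 raise a shared set of stress genes when growth slows, and Aft1 turns on the iron uptake genes when iron is short. The state of a culture is commonly read from such groups.

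Depth was 11656814, 10884080 and 6906778 counted reads in replicate 1 (Nonrandom, 4N and 4+3N) and 8798525, 10263096 and 7678144 in replicate 2. A count of 0 allowed at most 0.257 to 0.434 CPM (read counts scaled to a common library size) across the 6 libraries, by counting error only. The MATa markers were present in all 6 libraries, with *STE2* between 403 and 500 CPM, while the MATalpha marker *MF(ALPHA)1* stayed at or below 0.18 CPM. *STE3*, the other receptor, had 1.54 to 3.02 CPM, and *SAG1*, also a MATalpha marker, had 2.34 to 3.52 CPM. *LEU2* had 1 read in the 6 libraries, *MET17* and *URA3* were not listed, and *HIS3*, which BY4741 lacks only in part, had 77.9 to 85.7 CPM. The 10 most-read genes of each library took 16.5%, 17.0% and 16.9% of reads in replicate 1 and 16%, 16% and 16.2% in replicate 2. CPM below are scaled by TMM factors, and each fold change is replicate 1 over replicate 2.

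Replicates 1 and 2 differed in footprints over many genes, mostly by small amounts. Of 5261 genes, 563 (10.7%) were higher and 433 (8.23%) lower in replicate 1 at an adjusted p under 0.05 (edgeR's quasi-likelihood test with preparation as a block, Benjamini-Hochberg adjustment over all genes), together 996 or 18.9%. The median absolute log2 fold change of these 996 was 0.20. A change of over 1.2-fold was seen in 139 of the rises and 110 of the falls, and one of over 1.5-fold in 13 and 6. Of the 996 genes, 978 (98.2%) kept one direction in all 3 preparations, as did 2639 (50.2%) of all genes tested. The 3 replicate 1 libraries lay wholly above the 3 replicate 2 libraries in 731 genes (13.9%) and wholly below in 698 (13.3%), and 784 of the 996 were among these 1429 (27.2%). The 996 were called from these same pairs by a test that favours genes whose pairs agree. Their shared direction and separation thus follow in part from the calling and are no separate support. More genes passed in the most-read part of the list: 389 rises and 229 falls among the 1754 genes of highest mean CPM, against 37 and 50 among the 1754 of lowest. Footprint fold change had almost no relation to gene length across genes (Pearson r = −0.0099 over 5260 genes, which are not independent replicates).

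Among well-read genes the preparations mostly moved together. Across the 3844 genes with a mean of at least 20 CPM, the log2 ratio of replicate 1 to replicate 2 in Nonrandom correlated with that in 4N at r = 0.49 and with that in 4+3N at r = 0.48, and the ratios of 4N and 4+3N correlated at r = 0.64. Over all 5261 genes tested these were 0.27, 0.23 and 0.40, with the same sign in 65.7%, 64.4% and 70.3% of genes. The pairs share no library. The 4+3N pair, whose replicate 2 has the conflicting label, thus moved with the other pairs. Leaving out either 4+3N library, which takes the pair out of the estimate, left 704 to 708 genes, leaving out either 4N library 579 to 581, and leaving out either Nonrandom library 1127 to 1171. Without the preparation block 289 genes passed, all of them among the 996, and DESeq2 passed 344, also all among them, in a split of 259 rises and 85 falls. The calls depended on the count list used for Nonrandom replicate 1. With its first list in place of the second 0 genes passed in edgeR's quasi-likelihood test (575 had an unadjusted p under 0.05). Of the 60 named genes checked 22 changed direction. The median ratio of the first list to the second was 0.97 for genes under 100 reads and 0.080 for the 100 most-read genes. With this library left out 1127 genes passed, 836 of them among the 996. With the sum of both lists 331 passed.

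**Figure D1:**
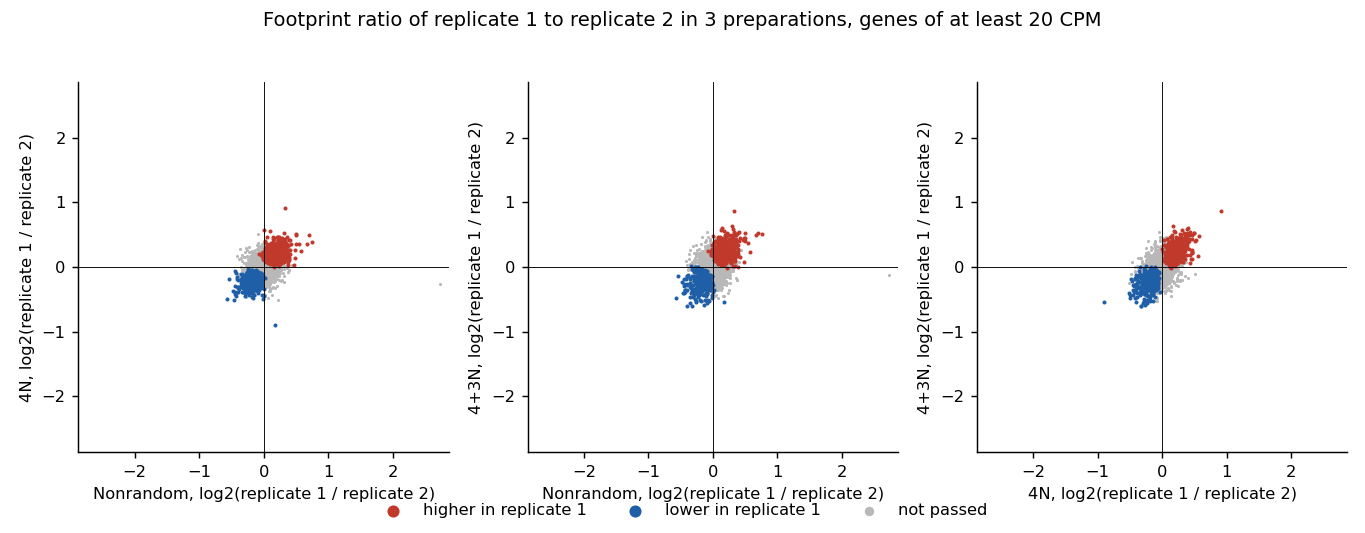
Each panel plots the log2 footprint ratio of replicate 1 to replicate 2 in one preparation against that in another, 1 point per gene with a mean of at least 20 CPM (n = 3844). Genes that passed as higher (red) or lower (blue) in replicate 1 sit in the upper right and lower left, since 978 of the 996 genes called over all levels kept one direction, and the 4N and 4+3N panel (r = 0.64) is the tightest. The calls came from these same libraries, so the place of the colored points is no separate support.

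The 15 largest rises and 15 largest falls among well-read genes without a near-identical copy were named by rule, and are given with the role of each. The rule took only genes that passed, moved one way in all 3 preparations and did not overlap between replicates. Their separation is therefore fixed by the choice and is no finding of its own. *PAN1*, an actin-regulating scaffold of endocytic sites, had 653, 642 and 610 CPM in replicate 1 (Nonrandom, 4N, 4+3N) and 486, 502 and 446 CPM in replicate 2. *ABP1*, an actin-binding protein of cortical patches, had 807, 821 and 832 CPM in replicate 1 and 646, 637 and 620 CPM in replicate 2. *VRP1*, the yeast verprolin, had 220, 213 and 187 CPM in replicate 1 and 175, 160 and 132 CPM in replicate 2. In these genes every replicate 1 library was above every replicate 2 library. The log2 fold changes were 0.41 ± 0.032 (SE) for *PAN1*, 0.37 ± 0.032 for *ABP1* and 0.41 ± 0.040 for *VRP1*, with adjusted p of 3.2e-08, 6.7e-08 and 3.0e-07. *AIM3*, which binds actin regulators, was smaller in counts but moved alike, at 74.3, 73.4 and 70.8 CPM in replicate 1 against 60.1, 56.0 and 47.1 CPM in replicate 2 (log2 fold change 0.41, adjusted p = 2.9e-05).

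Mitochondrial genes among the rises were *TOM5*, *TIM18* and *KGD4*. *TOM5*, a small subunit of the outer-membrane import channel, had 93.7, 100.0 and 95.1 CPM in replicate 1 and 66.1, 70.6 and 65.9 CPM in replicate 2. It had the largest fold change of these 15 rises, 1.42-fold (log2 0.51 ± 0.048, adjusted p = 1.7e-07), with nearly the same log2 ratio of 0.50, 0.50 and 0.53 in the 3 preparations. *TIM18*, of the inner-membrane insertion complex, had 32.7, 30.1 and 30.4 CPM in replicate 1 and 24.6, 26.1 and 20.8 CPM in replicate 2 (1.29-fold, adjusted p = 0.0023). *KGD4*, a subunit of alpha-ketoglutarate dehydrogenase, had 51.1, 51.8 and 53.7 CPM in replicate 1 and 36.6, 43.2 and 39.3 CPM in replicate 2 (1.31-fold, adjusted p = 0.00013). None of these overlapped between the replicates, as the rule required.

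The other named rises belong to varied functions. *SKO1*, a bZIP repressor under the Hog1 osmotic stress kinase, had 54.9, 50.4 and 49.8 CPM in replicate 1 and 38.6, 39.5 and 36.2 CPM in replicate 2, a 1.35-fold difference (adjusted p = 2.9e-05). *SYH1*, a GYF-domain protein linked to stalled ribosomes, had 112, 113 and 111 CPM in replicate 1 and 85.3, 84.2 and 91.3 CPM in replicate 2 (1.29-fold, adjusted p = 8.1e-06). *YNL190W*, which encodes a hydrophilin of the cell wall, had 370, 357 and 317 CPM in replicate 1 and 282, 282 and 220 CPM in replicate 2 (1.33-fold, adjusted p = 1.4e-07). The small ORF *YDR524C-B*, 201 bases on chromosome IV, had 2680, 3057 and 2823 CPM in replicate 1 and 2166, 2128 and 2105 CPM in replicate 2 (1.34-fold, adjusted p = 3.2e-08). *HTC1* completed the set at 1.31-fold, with 21.7 to 24.3 CPM in replicate 1 and 17.3 to 18.0 CPM in replicate 2, and *RPP1A*, *HSP150* and *HOR7* are described with their groups. All of these were higher in every replicate 1 library than in any replicate 2 library, as the rule required.

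The largest of these 15 falls was in the filaments of the nuclear pore basket. *MLP1*, which docks at the nuclear side of the pore and retains unspliced mRNA, had 133, 131 and 137 CPM in replicate 1 and 199, 185 and 192 CPM in replicate 2. It fell to 0.70-fold (log2 −0.52 ± 0.039, adjusted p = 2.3e-08), with log2 ratios of −0.58, −0.50 and −0.49 in Nonrandom, 4N and 4+3N. Its paralog *MLP2* had 43.5, 41.6 and 45.0 CPM in replicate 1 and 60.1, 59.3 and 59.3 CPM in replicate 2, a fall to 0.72-fold (adjusted p = 7.2e-06). The replicates did not overlap in either gene, as the rule required. Both are long genes, of 5628 bases (*MLP1*, chromosome XI) and 5040 bases (*MLP2*, chromosome IX) in the R64 annotation.

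*SCJ1*, *IMH1*, *HUT1* and *RER2* also fell. *SCJ1*, a DnaJ cochaperone of the endoplasmic reticulum, had 71.8, 84.5 and 89.4 CPM in replicate 1 and 97.8, 111 and 119 CPM in replicate 2 (0.75-fold, adjusted p = 1.5e-06). *IMH1*, a GRIP-domain protein of the Golgi, had 63.3, 60.2 and 63.4 CPM in replicate 1 and 85.6, 79.5 and 82.6 CPM in replicate 2 (0.75-fold, adjusted p = 6.5e-06). *HUT1*, a nucleotide sugar transporter homolog of the endoplasmic reticulum, had 17.8, 18.9 and 17.7 CPM in replicate 1 and 23.5, 23.7 and 26.9 CPM in replicate 2 (0.74-fold, adjusted p = 0.0013). *RER2*, the prenyltransferase that makes dolichol, had 22.3, 22.8 and 25.2 CPM in replicate 1 and 30.3, 30.7 and 28.6 CPM in replicate 2 (0.77-fold, adjusted p = 0.0021). For each the highest replicate 1 library was below the lowest replicate 2 library, as the rule required.

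The remaining named falls had other roles, and *ARN2* and *RRP1* are described with their groups. *TOA2*, the small subunit of TFIIA, had 42.4, 45.1 and 45.6 CPM in replicate 1 and 52.9, 58.8 and 62.8 CPM in replicate 2 (0.77-fold, adjusted p = 6.2e-05), and *SRB7*, of Mediator, had 22.2 to 25.9 CPM in replicate 1 and 29.1 to 31.4 CPM in replicate 2 (0.78-fold, adjusted p = 0.0017). *SYF1*, a spliceosome factor, had 20.4 to 22.9 CPM in replicate 1 and 27.6 to 29.9 CPM in replicate 2 (0.76-fold, adjusted p = 0.0016). *CNB1*, the regulatory subunit of calcineurin, had 53.7, 54.2 and 63.0 CPM in replicate 1 and 65.5, 74.4 and 84.7 CPM in replicate 2 (0.76-fold, adjusted p = 2.7e-05). *TMA23*, a nucleolar protein, and *AIM20* fell to 0.76-fold and 0.77-fold from lower levels, with 19.96 to 21.4 and 16.8 to 22.3 CPM in replicate 1 and 25.3 to 31.8 and 23.4 to 26.4 CPM in replicate 2. *YCR087C-A* fell to 0.75-fold (63.9, 73.1 and 77.1 CPM in replicate 1 and 86.6, 99.6 and 99.04 CPM in replicate 2, adjusted p = 2.8e-06). It ends at base 264467 of chromosome III in R64, and *ABP1*, which rose, begins at base 265068.

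**Figure D2:**
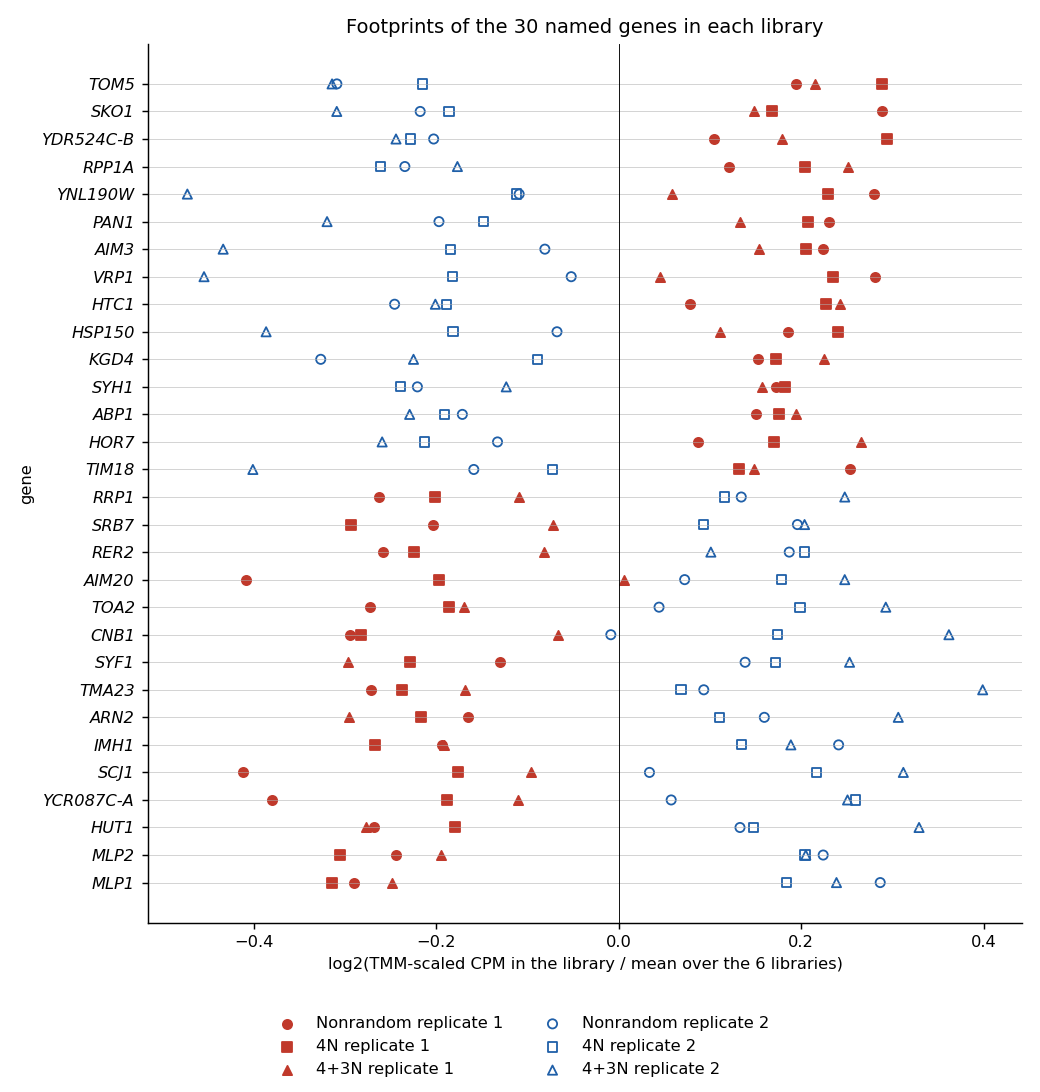
For the 15 largest rises and 15 largest falls, each point is 1 library, as log2 of its TMM-scaled CPM over the gene's mean of the 6 libraries (filled red, replicate 1; open blue, replicate 2; the marker shape gives the preparation). The replicates are separated in all 30 genes, as the choice of genes required, and *TOM5* and *MLP1* stand at the top and the bottom.

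Footprints of cytosolic ribosomal proteins were mostly higher in replicate 1. Of 81 large-subunit genes tested, 42 (51.9%, against 10.7% of all genes) rose and 2 fell, with a median log2 fold change of 0.11, and of 57 small-subunit genes 37 (64.9%) rose and 3 fell, with a median of 0.15. The median over all genes was −0.0043. These are highly read genes, and among the 1754 most-read genes 389 rose. The medians had the same sign in each preparation, at 0.081, 0.13 and 0.14 for the large and 0.081, 0.16 and 0.19 for the small subunit in Nonrandom, 4N and 4+3N. Without the preparation block 17 and 19 of these genes rose. The genes that fell were *RPL36A* (log2 −0.13), *RPL39* (−0.11), *RPS19A* (−0.10), *RPS19B* (−0.10) and *RPS9A* (−0.11).

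*RPP1A* encodes a P protein of the ribosomal stalk, the flexible arm that recruits translation factors. It had 1420, 1504 and 1553 CPM in replicate 1 and 1109, 1089 and 1154 CPM in replicate 2, 1.33-fold higher (adjusted p = 2.3e-08). *RPS7A*, of the small subunit, had 2638, 2522 and 2629 CPM in replicate 1 and 2095, 1862 and 1806 CPM in replicate 2 (1.35-fold, adjusted p = 2.5e-08). *RPL27A* had 2198, 2208 and 2265 CPM in replicate 1 and 1808, 1736 and 1669 CPM in replicate 2 (1.28-fold, adjusted p = 1.0e-07). In these the replicates did not overlap, which the rule required of *RPP1A*. *RPL20B* rose 1.32-fold (1074 to 1142 CPM in replicate 1, 792 to 896 CPM in replicate 2), *RPS21A* 1.33-fold (629 to 684 and 478 to 498 CPM) and *RPS17A* 1.26-fold (976 to 1078 and 761 to 855 CPM). *RPS30A* rose 1.34-fold within each preparation, although its range of 270 to 376 CPM in replicate 1 overlapped the 184 to 292 CPM of replicate 2, and it did not pass without the block (adjusted p = 0.13).

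Most ribosomal protein genes have a near-identical copy, between which short reads cannot be placed with certainty, and how such reads were counted is not given in the sources used here. *RPL4A* varied between preparations: it had 134, 149 and 208 CPM in replicate 1 and 107, 78.5 and 113 CPM in replicate 2, with log2 ratios of 0.32, 0.92 and 0.88. Whether the placing of reads accounts for this was not tested. Over the 205 tested genes marked as near-identical copies in the genome, 89 rose and 8 fell (10.7% and 8.23% of all genes did so). Among ribosomal protein genes without such a copy, 6 of 15 of the large subunit rose and 1 fell, with a median log2 fold change of 0.051, and 6 of 9 of the small subunit rose and 0 fell, with a median of 0.11. *RPP1A* is one of the genes without a copy.

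Ribosome biogenesis genes, whose products process and assemble pre-ribosomes in the nucleolus, fell more often than they rose. Of 96 tested, 33 (34.4%, against 8.23% of all genes) fell, 3 rose and 60 did not pass, and the median log2 fold change was −0.082, at −0.059, −0.10 and −0.084 in Nonrandom, 4N and 4+3N. *RRP1*, needed for 27S pre-rRNA processing, had 75.1, 78.4 and 83.5 CPM in replicate 1 and 98.9, 97.6 and 107 CPM in replicate 2 (0.78-fold, adjusted p = 1.3e-05). *RRP14* had 94.2, 104 and 113 CPM in replicate 1 and 116, 123 and 149 CPM in replicate 2 (0.81-fold, adjusted p = 2.9e-05). *NOP7*, a scaffold of large-subunit assembly, had 314, 317 and 341 CPM in replicate 1 and 366, 368 and 401 CPM in replicate 2 (0.86-fold, adjusted p = 5.2e-05). All 3 were lower in every replicate 1 library, which the rule required of *RRP1* as it is among the largest falls. The rises were *SRP40* (log2 0.23), a nucleolar phosphoprotein, *PNO1* (0.13) and *REI1* (0.14). The count of falls was 18 without either 4N library and 6 without the preparation block. Of the related subunits of RNA polymerases I and III, 3 of 20 (15%) fell (*RET1*, *RPA43* and *RPC31*) and *RPA14* rose. Of 71 mitochondrial ribosomal proteins 7 (9.86%) rose and 5 (7.04%) fell, near the share of all genes (3 and 1 without either 4N library).

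Genes of the iron regulon were mostly lower in replicate 1. Of 31 tested, 12 (38.7%, against 8.23% of all genes) fell and 1 (3.23%, against 10.7%) rose, and the median log2 fold change was −0.16 in each of Nonrandom, 4N and 4+3N. *FTR1*, the permease of the high-affinity iron importer, had 263, 293 and 289 CPM in replicate 1 and 313, 367 and 380 CPM in replicate 2 (0.80-fold, log2 −0.32 ± 0.035, adjusted p = 1.6e-06). *ARN2*, a siderophore transporter, had 86.5, 83.5 and 79.0 CPM in replicate 1 and 108, 105 and 120 CPM in replicate 2 (0.76-fold, adjusted p = 1.2e-05). A second siderophore transporter, *ARN1*, had 120, 123 and 123 CPM in replicate 1 and 142, 151 and 145 CPM in replicate 2 (0.83-fold, adjusted p = 8.2e-05). The ranges of the replicates did not meet in these genes, nor in *FET4*, a low-affinity iron transporter, with 68.3 to 75.7 CPM in replicate 1 and 85.2 to 96.2 CPM in replicate 2 (0.80-fold, adjusted p = 7.1e-05).

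Other members that fell were the siderophore transporters *SIT1* (log2 −0.16) and *ENB1* (−0.19), the reductase *FRE1* (−0.20) and its homolog *FRE5* (−0.61, at under 12 CPM), the vacuolar transporters *SMF3* (−0.20) and *COT1* (−0.19), the wall protein *FIT1* (−0.25) and *TIS11* (−0.25), which promotes decay of mRNAs of iron-using proteins. *ISU2*, a scaffold for iron-sulfur clusters, rose (log2 0.16). The multicopper oxidase *FET3*, partner of *FTR1*, did not pass (log2 −0.044). All 3 replicate 1 libraries lay below replicate 2 in 16 of the 31 genes (13.3% of all genes did so) and above in 1 (13.9% of all genes). The count of falls was 10 to 14 over the fits that left out a library and 9 without the preparation block.

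**Figure D3:**
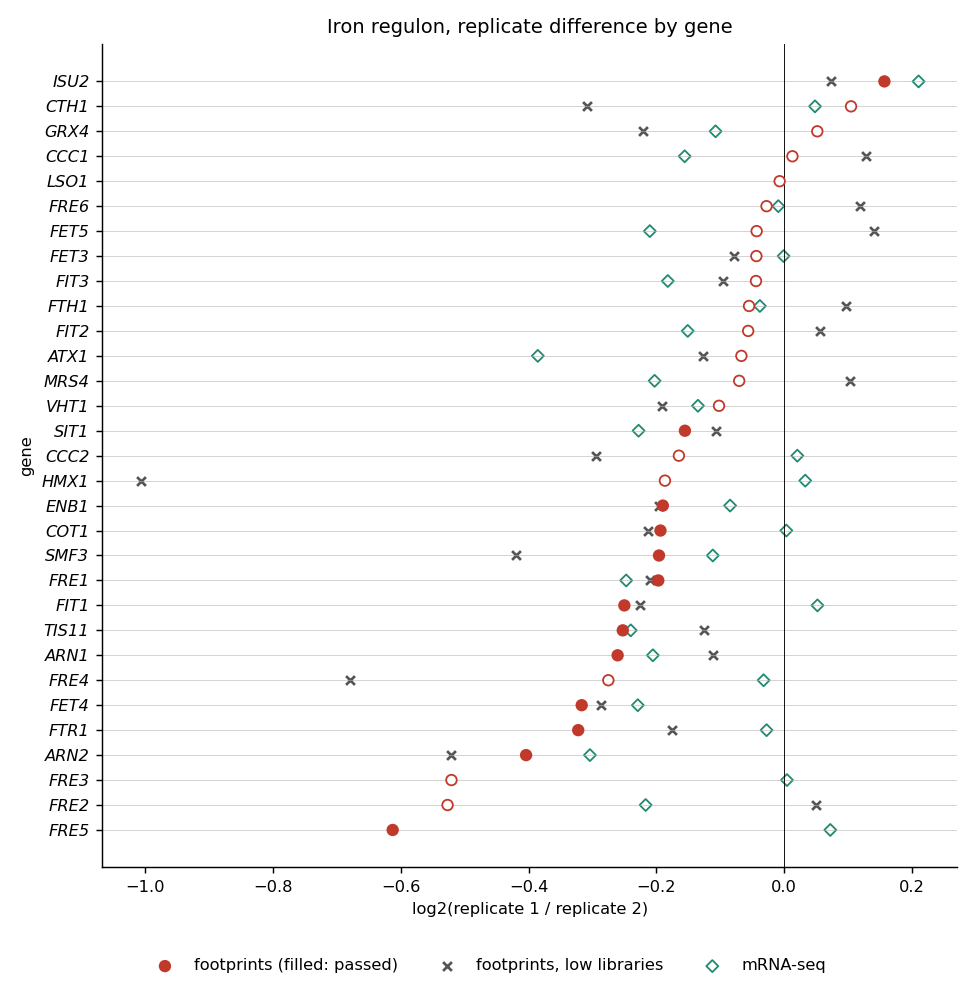
Log2 ratio of replicate 1 to replicate 2 for the 31 iron regulon genes tested, in the standard footprint libraries (circles, filled where the gene passed), the low libraries (crosses) and mRNA-seq (diamonds). Of the 31 circles, 27 lie left of 0, and the diamonds and crosses of *ARN2*, *FET4*, *ARN1*, *FRE1* and *TIS11* lie left of 0 as well. Over the list 8 of 30 diamonds and 8 of 28 crosses lie right of 0.

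In glycolysis and ethanol fermentation 12 of 23 genes (52.2%, against 10.7% of all genes) rose and 0 fell (median log2 fold change 0.12). The list is among the most read, with a median of 2812 CPM, and 389 of the 1754 most-read genes rose. *ADH1*, the main fermentative alcohol dehydrogenase, had 12965, 14387 and 14413 CPM in replicate 1 and 10546, 12156 and 12821 CPM in replicate 2 (1.18-fold, adjusted p = 3.8e-06). *ENO1*, an enolase, had 541, 609 and 656 CPM in replicate 1 and 467, 509 and 567 CPM in replicate 2 (1.17-fold, adjusted p = 2.7e-05). The replicates of *ADH1* did not overlap, while those of *ENO1* did across preparations, and each was higher in replicate 1 within every preparation. Both have near-identical copies, and without such genes 7 of 15 of the list rose. Without the block 1 gene of the list rose, and without either 4N library 7.

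In the tricarboxylic acid cycle 10 of 23 genes (43.5%, against 10.7% of all genes) rose and 1, *PYC2*, fell (median 0.099). *MDH1*, mitochondrial malate dehydrogenase, had 181, 198 and 190 CPM in replicate 1 and 147, 162 and 151 CPM in replicate 2 (1.23-fold, adjusted p = 7.7e-06), and *IDH2*, of isocitrate dehydrogenase, had 705, 652 and 657 CPM in replicate 1 and 617, 566 and 543 CPM in replicate 2 (1.17-fold, adjusted p = 3.7e-05). Both were clear of overlap. Among subunits of the respiratory chain and ATP synthase 11 of 40 (27.5%) rose and 1, *COX9*, fell (median 0.086). *ATP15*, the epsilon subunit, rose 1.21-fold at 103, 99.6 and 87.4 CPM in replicate 1 against 93.0, 79.6 and 66.2 CPM in replicate 2, which overlap across preparations (adjusted p = 0.00054 with the block and 0.15 without it). The counts of rises fell to 5 and 6 without either 4N library. Of 21 glucose-repressed genes 3 (14.3%) rose (*HXK1*, *GUT2* and *ALD4*), and none of 9 hexose transporters and glucose sensors passed.

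Of 44 genes under Msn2 and Msn4, 12 (27.3%, against 10.7% of all genes) rose and 0 fell, with a median log2 fold change of 0.17 (0.14, 0.15 and 0.20 in Nonrandom, 4N and 4+3N). *HOR7*, a small protein induced by osmotic stress, had 232, 246 and 262 CPM in replicate 1 and 199, 188 and 182 CPM in replicate 2 (1.29-fold, adjusted p = 5.6e-06). *UBI4*, the polyubiquitin gene, had 159, 158 and 168 CPM in replicate 1 and 125, 138 and 134 CPM in replicate 2 (1.22-fold, adjusted p = 4.3e-05). *SOD2*, mitochondrial superoxide dismutase, had 185 to 193 CPM in replicate 1 and 153 to 168 CPM in replicate 2 (1.18-fold, adjusted p = 0.00014), and *GAD1*, glutamate decarboxylase, 36.9 to 40.9 CPM in replicate 1 and 29.0 to 31.9 CPM in replicate 2 (1.26-fold, adjusted p = 0.0016). None of these overlapped, which the rule required of *HOR7*. *HSP12*, a membrane-stabilising protein that is a common reporter of this response, was lowly read, at 8.73, 11.4 and 9.90 CPM in replicate 1 and 6.29, 5.63 and 7.79 CPM in replicate 2 (1.56-fold, adjusted p = 0.0039).

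Of 19 genes of trehalose and glycogen metabolism 6 (31.6%, against 10.7% of all genes) rose and 0 fell. *TSL1*, a regulatory subunit of trehalose synthase, had 151, 154 and 151 CPM in replicate 1 and 128, 125 and 115 CPM in replicate 2 (1.24-fold, adjusted p = 2.2e-05). The replicates stood apart in *TSL1*. Heat shock chaperones were divided, with 9 of 28 (32.1%) higher, *HSC82* and *SSC1* first by p, and 4 (14.3%, against 8.23% of all genes) lower (*ERO1*, *YDJ1*, *MGE1* and *HSP60*). Without near-identical copies 5 of 22 chaperones rose and 4 fell, with a median of −0.027. Of 39 genes of oxidative stress and drug response 8 (20.5%) rose and 3 (7.69%) fell. Without either 4N library 7 of the Msn2 and Msn4 genes rose, 5 chaperones rose and 1 fell, and 5 oxidative stress genes rose and 0 fell. Without either 4+3N library 1 chaperone fell.

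Of 42 cell wall mannoproteins and GPI proteins, 12 (28.6%, against 10.7% of all genes) rose and 4 (9.52%, against 8.23%) fell. Without either 4N library 8 rose and 1 fell. *HSP150*, an O-mannosylated wall protein, had 2740, 2846 and 2601 CPM in replicate 1 and 2298, 2124 and 1842 CPM in replicate 2 (1.31-fold, adjusted p = 1.4e-07). *CCW12*, a wall mannoprotein, had 11459, 11672 and 9881 CPM in replicate 1 and 9911, 8464 and 7001 CPM in replicate 2 (1.31-fold, adjusted p = 3.2e-07 with the block and 0.071 without). *HSP150* was separated between replicates, as the rule required, and *CCW12* overlapped by the level of its preparations. *PIR1* and *CIS3*, of the same wall protein family as *HSP150*, rose 1.18-fold and 1.19-fold (807 to 864 and 1400 to 1543 CPM in replicate 1, 648 to 740 and 1097 to 1379 CPM in replicate 2). The falls were *UTR2*, *GAS5*, *TIP1* and *CRH1*, which remodel or coat the wall glucan.

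Of 30 targets of the unfolded protein response 5 (16.7%, against 8.23% of all genes) fell and 1 (3.33%, against 10.7%), *PDI1*, rose. Apart from *SCJ1* they were *ERO1*, the oxidase for disulfide formation, with 122, 124 and 134 CPM in replicate 1 and 147, 144 and 147 CPM in replicate 2 (0.87-fold, adjusted p = 0.0010), *KAR2*, the luminal Hsp70, with 952, 1040 and 1089 CPM in replicate 1 and 1053, 1127 and 1219 CPM in replicate 2 (0.91-fold, adjusted p = 0.0016), *SBH1* and *ERV25*. *ERO1* did not overlap, and *KAR2*, which overlapped across preparations, did not pass without the block (adjusted p = 0.21). Ergosterol synthesis had 6 falls (18.8%) and 2 rises (6.25%) in 32 genes, and 0 falls without either 4N or either 4+3N library.

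Of 35 a-cell and pheromone genes 3 (8.57%, against 10.7% of all genes) rose and 2 (5.71%, against 8.23%) fell, near the shares of all genes. *MFA2*, the a-factor gene, which has a near-identical copy, had 194, 217 and 194 CPM in replicate 1 and 138, 153 and 146 CPM in replicate 2 (1.39-fold, adjusted p = 3.2e-08), while *STE6*, the a-factor exporter, had 223, 227 and 223 CPM in replicate 1 and 245, 264 and 240 CPM in replicate 2 (0.90-fold, adjusted p = 0.0041). Neither overlapped, but *STE6* lost its call without either 4N library (adjusted p = 0.15), by DESeq2 (0.057) and without the block (0.066). Of 11 histone genes 5 (45.5%) rose and 2 (18.2%) fell, and of the 3 without a near-identical copy 1 rose and 1 fell. *HTA1*, an H2A gene with a copy, had 436, 460 and 501 CPM in replicate 1 and 358, 407 and 421 CPM in replicate 2 (1.18-fold, adjusted p = 3.2e-05). Of the G1 and S phase genes 4 of 46 (8.7%) rose and 5 (10.9%) fell, near the shares of all genes. Of the G2 and M phase genes 6 of 26 (23.1%) rose and 1 (3.85%) fell. Of the M to G1 and daughter-cell genes 5 of 25 (20%) rose and 1 (4%) fell. When a library was left out the rises ran from 3 to 7, 3 to 4 and 4 to 8 and the falls from 2 to 6, 1 to 2 and 1 to 2. The lowest count of G2 and M rises came without a Nonrandom or 4+3N library, the highest of the other rises without a Nonrandom library and the lowest of G1 and S falls without a 4+3N library.

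In biosynthesis, 17 of 75 amino acid genes (22.7%, against 10.7% of all genes) rose and 1, *TYR1*, fell (median 0.048). Only 6 rose without either 4N library and 5 without the preparation block. Of 33 sulfate and methionine genes 6 (18.2%) rose and 1 fell, and of 21 purine genes 6 (28.6%) rose and 0 fell. *GCN4*, whose product activates the amino acid genes and is controlled by translation, rose (32.3, 32.3 and 31.9 CPM in replicate 1 against 29.0, 23.5 and 27.2 CPM in replicate 2, 1.22-fold, adjusted p = 0.013). Fatty acid and phospholipid synthesis had 3 rises and 3 falls in 35, the proteasome 4 and 4 in 39, phosphate acquisition 2 and 4 in 26, zinc and copper homeostasis 1 and 2 in 18, hypoxic genes 2 and 2 in 22, nitrogen catabolite repression 5 and 3 in 39, and thiamine and pyridoxine synthesis 0 and 0 in 12. The shares of these lists were 0% to 12.8% for rises and 0% to 15.4% for falls, against 10.7% and 8.23% of all genes. Without either 4N library the nitrogen list had 1 rise and 0 falls and the fatty acid list 0 falls. The phosphate list had 0 rises without either 4N or 4+3N library, and the proteasome had 2 falls then and 8 without either Nonrandom library.

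**Figure D4:**
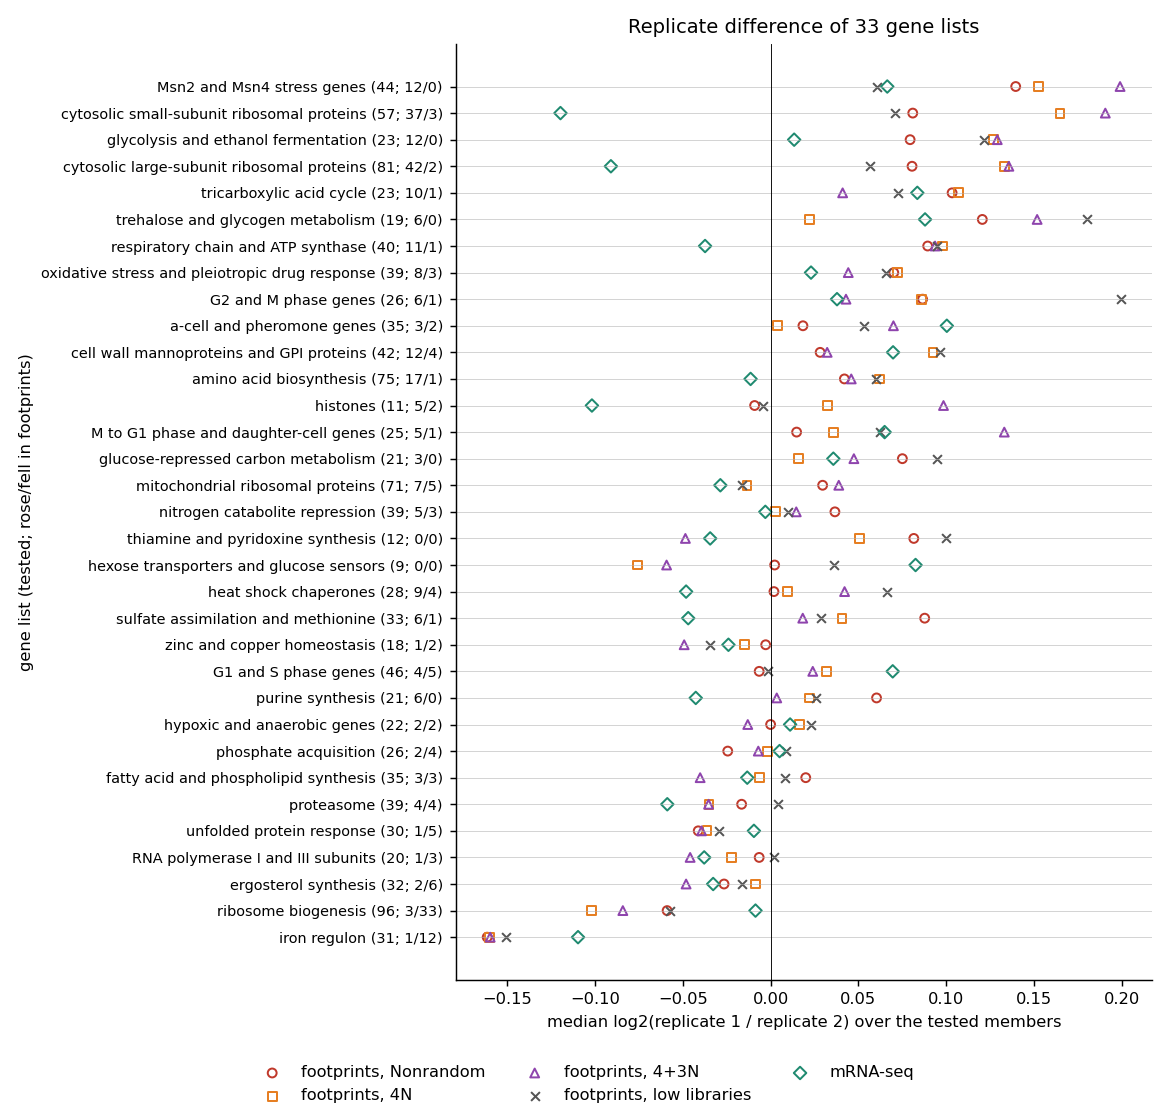
Median log2 ratio of replicate 1 to replicate 2 over the tested members of each of 33 gene lists, in the 3 standard footprint preparations, the low footprint libraries and mRNA-seq. The number tested and the counts that rose and fell in footprints follow each name, and the iron regulon (−0.16 in each preparation) and ribosome biogenesis lie lowest, with the mRNA-seq points of both ribosomal protein lists left of 0 and their footprint points right of it.

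The low footprint libraries of Nonrandom and 4+3N, which the comparison above did not use, gave a separate reading. They held 827353 to 2667016 reads, and 39 of 4804 genes passed there (0.812%; 33 higher and 6 lower in replicate 1). Across 3844 genes of at least 20 CPM the log2 fold changes of the standard and the low libraries correlated at r = 0.33. Of the genes that rose in the standard libraries 82.6% of 556 had a positive fold change in the low ones, and of those that fell 71.7% of 427 had a negative one. Over all genes tested in the standard libraries 2409 of 4805 had a positive fold change in the low ones. *MLP1* had 89.5 and 101 CPM in replicate 1 of Nonrandom low and 4+3N low and 155 and 150 CPM in replicate 2 (log2 −0.70, adjusted p = 0.00062), and *HSP150* (0.38), *CCW12* (0.26), *YDR524C-B* (0.27), *PAN1* (0.36), *VRP1* (0.47), *ABP1* (0.29) and *RPP1A* (0.24) also passed as higher. Without the preparation block 0 genes passed, these included (149 at an unadjusted p under 0.05 in edgeR), and with RLE factors 18 did, without *VRP1*, *ABP1* and *RPP1A*. *TOM5* and *MFA2* had low-library fold changes near 0 (log2 0.058 and −0.0045). The median over the iron regulon was −0.15, over ribosome biogenesis −0.058, and over the large and small ribosomal subunits 0.057 and 0.071. Whether a low library and its standard partner share material is not stated in the labels.

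In mRNA far fewer genes passed between the same replicate numbers, but these libraries were shallower and varied more. The biological coefficient of variation (spread between libraries beyond counting error) was 4.32% in mRNA and 2.68% in footprints. The counts of calls therefore do not show that mRNA differed less. The mRNA-seq libraries held 1838817 to 3497303 reads, and 51 of 5415 genes passed (0.942%; 40 higher and 11 lower in replicate 1), though 387 did when either 4+3N library was left out and 0 to 4 when a Nonrandom or 4N library was (522 to 538 at an unadjusted p under 0.05 in edgeR where 0 passed). DESeq2 passed 24 genes, 2 higher and 22 lower, with 6 of them among the 51. Across 3841 genes the footprint and mRNA fold changes correlated at r = 0.18. Of the footprint rises 62% of 560 were positive in mRNA, and of the falls 64.7% of 430 were negative. Over all genes tested in footprints 2599 of 5210 were positive in mRNA. *ABP1* (mRNA log2 0.40), *VRP1* (0.47), *SYH1* (0.27) and *ARN2* (−0.30) passed in mRNA in the direction of their footprints. *VRP1* had 110, 113 and 99.2 CPM in mRNA of replicate 1 and 65.3, 78.0 and 91.8 CPM in mRNA of replicate 2. Without a Nonrandom or 4N mRNA library none of these passed, *ABP1* without 4N replicate 2 excepted. The mRNA fold changes rose with gene length (r = 0.30 across 5210 genes), which those of footprints did not.

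Between assays the replicate difference itself differed at 277 of 5523 genes (5.02%), by the interaction of assay and replicate in edgeR's quasi-likelihood test. The footprint difference exceeded the mRNA difference in 194 (3.51%) and fell short of it in 83 (1.5%). *MLP1* had 109, 117 and 106 CPM in mRNA of replicate 1 and 86.2, 78.0 and 95.4 CPM in mRNA of replicate 2, so its mRNA fold change (log2 0.35, adjusted p = 0.055) lay opposite to its footprints, and the difference of −0.87 ± 0.094 passed (adjusted p = 2.2e-07). *MLP2* was like it (mRNA 0.31, difference −0.77, adjusted p = 1.2e-05). *TOM5* stood at the other end, with an mRNA log2 fold change of −0.27 and a difference of 0.80 ± 0.12 (adjusted p = 4.8e-05). *MLP1* and *MLP2* are long and *TOM5*, of 153 bases, is short, and with a trend on gene length removed the 3 differences were −0.75, −0.66 and 0.62 and still passed.

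Ribosomal proteins made up a large share of these genes. The difference was positive in 41 of 81 large-subunit and 33 of 57 small-subunit genes and negative in 0 (3.51% and 1.5% of all genes), and the medians over the mRNA fold changes were −0.091 and −0.12 where those of footprints were 0.11 and 0.15. *RPP1A* had 1821, 1758 and 1833 CPM in mRNA of replicate 1 and 2389, 2240 and 1891 CPM in mRNA of replicate 2, which is lower in each preparation, and its difference was 0.69 ± 0.070 (adjusted p = 2.1e-07). Ribosomal protein genes are short (median length with introns 795 and 768 bases for the large and small subunit, against 1266 over all genes). The length trend was fitted on such lengths, so a gene with introns was treated as longer than its spliced mRNA. What this does to the counts below was not tested. With the length trend removed, a setting chosen after seeing the data, 143 genes passed and the counts were 20 and 20, with 1 negative in the small subunit. They were 8 and 14 without the preparation block, 21 and 23 without either footprint 4N library, and 22 and 20 without either mRNA 4N library. In the iron regulon 2 of 30 genes passed, both negative, *FTR1* (−0.29) and *FRE5* (−0.67), and 0 without either footprint 4N library or without the block, while the mRNA median of −0.11 had the sign of the footprint median. In ribosome biogenesis 3 passed as negative and 1 as positive of 96, and the mRNA median was −0.0086.

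**Figure D5:**
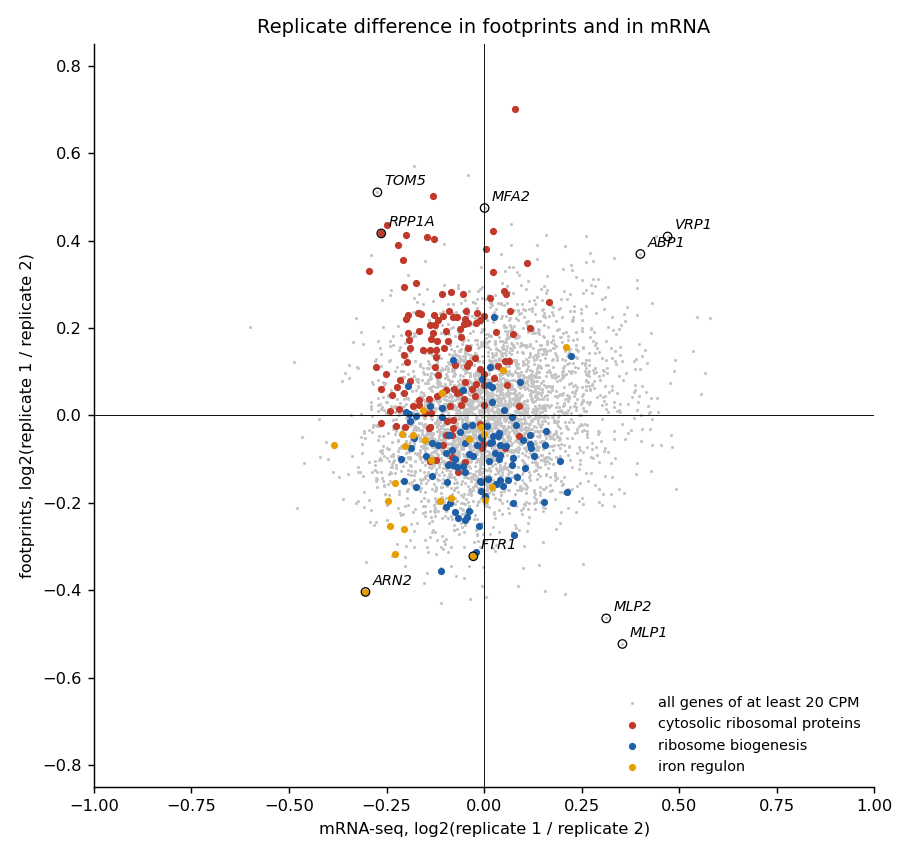
Log2 ratio of replicate 1 to replicate 2 in footprints (vertical) against mRNA-seq (horizontal), 1 point per gene of at least 20 CPM, with cytosolic ribosomal proteins in red, ribosome biogenesis in blue and the iron regulon in orange. The ribosomal proteins lie mostly in the upper left (footprint medians of 0.11 and 0.15, mRNA medians of −0.091 and −0.12), *ARN2* in the lower left, *VRP1* and *ABP1* in the upper right, and *MLP1* and *MLP2* in the lower right.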

How the data were processed

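The values are the authors' deposited read counts, whole numbers with 1 table for each library. The submitters' processing notes name CASAVA 1.8, Bowtie 1.0.0 and the build sacCer3. The rule for counting a read to a gene, the strand used and the treatment of reads with several alignments are not given in the sources used here. Genes absent from a table were set to 0. Of 5758 genes in the 19 tables, 5754 matched the R64 annotation, which supplied symbols and gene lengths (introns included), and 255 were marked by name as near-identical copies. In the table of Nonrandom replicate 1 no gene's first count exceeded its second (378 were equal), and the lists summed to 3520161 and 11656814.

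Counts were filtered with filterByExpr, scaled by TMM and fitted in edgeR 4.0.16 (R 4.3.3) with preparation as a block. The coefficient for replicate 1 minus replicate 2 was tested two-sided by quasi-likelihood F tests (2 residual degrees of freedom, biological coefficient of variation 2.68%), with Benjamini-Hochberg adjustment over all genes called at 0.05. An SE is the size of the log2 fold change divided by the root of its F. The mRNA-seq libraries (2 residual degrees of freedom), the low libraries (1) and the difference between assays (4) were fitted likewise. Ratios within a preparation carry a prior count of 2; with 1 library per cell they could not be tested. Libraries were paired by preparation as the comparison was set, although no label states a shared culture. The ratios of all 3 pairs of preparations correlated above 0.1. They come from the libraries tested, and their correlation does not show pairing within a preparation.

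The gene lists (33), the members and the tests were chosen with earlier results of these data known. Named genes were the 15 largest rises and the 15 largest falls that passed, moved one way in all 3 preparations without overlap, averaged at least 20 CPM and had no near-identical copy, plus up to 4 genes per list with the smallest p. Members that make up a count of 5 or fewer, the members of the iron regulon, *GCN4*, *HSP12* and *FET3* were named after their values were seen. Alternatives were other factors (RLE), DESeq2 1.42.0, limma-voom (limma 3.58.1), no block, no filter, no copies, each library left out, a length trend removed, thinning, the other count lists and the low pairs added. The scripts were tested on simulated data.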

Additional observations from a re-analysis of the deposited data

Results flagged for a closer look

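The replicate difference differed between footprints and mRNA, by the interaction term, at 277 genes, and 28 of them are named above. The values below are the footprint log2 difference minus the mRNA log2 difference, replicate 1 over replicate 2 in each assay, with adjusted p under 0.05 in edgeR's quasi-likelihood test. It was negative in *MLP1* (−0.87), *MLP2* (−0.77), *IMH1* (−0.61), *CNB1* (−0.47), *SCJ1* (−0.41), *STE6* (−0.35) and *FTR1* (−0.29).

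It was positive in the ribosomal protein genes *RPP1A* (0.69), *RPS7A* (0.69), *RPL4A* (0.63), *RPS17A* (0.63), *RPS21A* (0.62), *RPL27A* (0.57), *RPL20B* (0.54) and *RPS30A* (0.41). It was also positive in *TOM5* (0.80), *TIM18* (0.67), *MFA2* (0.48), *ATP15* (0.45), *HTA1* (0.43), *YDR524C-B* (0.40), *HOR7* (0.34), *UBI4* (0.33), *CCW12* (0.33), *ADH1* (0.32), *MDH1* (0.26), *YNL190W* (0.26) and *HSP150* (0.26). Across all genes the smooth trend of this difference on gene length ran to 0.13 at 351 bases and −0.083 at 3570 bases. With this trend removed *YDR524C-B*, *YNL190W*, *HSP150*, *HOR7*, *CCW12*, *MDH1*, *ATP15* and *MFA2* no longer passed, with differences of 0.16 to 0.29, and the others did. Of the 28 genes, 14 lost the call without the preparation block, 8 without either footprint 4N library, 7 without either footprint 4+3N library, and 6, 5 and 3 without either Nonrandom, 4N or 4+3N library of mRNA. The 12 that passed under every alternative run were *MLP1*, *MLP2*, *IMH1*, *STE6*, *RPP1A*, *RPS7A*, *RPS17A*, *RPS21A*, *RPL27A*, *RPL20B*, *TOM5* and *HTA1*. For this difference the other count lists, DESeq2, limma-voom and thinning were not run. With the first count list the footprint direction of *RPP1A*, *RPS7A*, *RPS17A*, *RPS21A*, *RPL27A*, *RPL20B* and *HTA1* reversed. The rest of the 12 kept their footprint direction without passing.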

How the results depend on the processing

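The 60 genes checked here are a part of the genes named by the rule, and all had passed in the footprint comparison. Named genes of lists in which none passed were not among them. All 60 kept direction and call with RLE factors, limma-voom, no filter, the length trend removed, thinned libraries and the low pairs added. Without near-identical copies the 49 left did so too. By DESeq2 46 of the 47 with an adjusted p did, and with each library left out 59 or 60 did, with *STE6* the exception in both. Without the preparation block, which pairs the replicates (no replicate block below), 49 did, and *ADH1*, *AIM20*, *ATP15*, *CCW12*, *CIS3*, *ENO1*, *HTA1*, *KAR2*, *RPS30A*, *RRP14* and *STE6* kept direction only. With the sum of both count lists 32 did and 28 kept direction only. Of 66 counts of rises or falls over the gene lists, 53 moved by over 1.5 times without the block, 40 by DESeq2, 57 with the first count list, 52 with the sum of both and 13 to 33 with a library left out, the most without a 4N library.

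The count of footprint calls (996; 563 rises, 433 falls) was 289 (194 and 95) with no replicate block, 344 (259 and 85) by DESeq2, 331 (180 and 151) with the sum of both count lists and 0 (0 and 0) with the first list of Nonrandom replicate 1. It ran from 579 to 1171 when each library was left out (rises 368 to 664, falls 210 to 513). In the first list the median ratio to the second was 0.97 for genes under 100 reads and 0.080 for the 100 most-read genes, and with it these 22 named genes reversed while the other 38 kept direction without passing: *YDR524C-B* (−0.72), *RPP1A* (−0.56), *YNL190W* (−0.18), *HSP150* (−0.44), *HOR7* (−0.26), *RPL20B* (−0.54), *RPL27A* (−0.66), *RPS7A* (−0.57), *RPS21A* (−0.47), *RPS30A* (−0.42), *RPS17A* (−0.68), *SRP40* (−0.10), *CCW12* (−0.82), *PIR1* (−0.41), *CIS3* (−0.51), *SOD2* (−0.044), *ADH1* (−0.96), *ENO1* (−0.36), *IDH2* (−0.24), *ATP15* (−0.14), *MFA2* (−0.26) and *HTA1* (−0.48).

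The mRNA count (51; 40 and 11) was 79 with no replicate block (19 falls), 24 by DESeq2 (2 and 22), 86 without a filter (62 and 24), 14 with the length trend removed (11 and 3) and 175 thinned (99 and 76), and limma-voom gave 17 falls. It ran from 0 to 387 when each library was left out (0 to 200 rises, 0 to 187 falls). The count of differences between assays (277; 194 and 83) was 71 with no replicate block (52 and 19) and 143 with the length trend removed (89 and 54), and ran from 94 to 315 with each library left out (74 to 222 and 20 to 93). The low count (39; 33 and 6) was 18 with RLE factors (15 and 3) and 0 with no replicate block, where rises and falls were both 0 (149 genes at an unadjusted p under 0.05 in edgeR). The causes were not tested. Leaving out a low library was not run, since it leaves no residual degrees of freedom, and promoter motifs were not counted. No replicated culture is labelled, so depth is not the limit on what the replicate numbers stand for.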
